A study of Mus musculus with 4 samples.

Results

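The genes examined here were 10 cadherins that belong to the classical cadherins in the broad sense: the type II members *Cdh6*, *Cdh7*, *Cdh8*, *Cdh9*, *Cdh10*, *Cdh11*, *Cdh12* and *Cdh18*, the type I member *Cdh4* (R-cadherin) and the atypical member *Cdh13* (T-cadherin). They were picked by family name from the 56884 genes of the count tables, with earlier results of these data known, and all 10 were found. Nuclear transcripts were counted nucleus by nucleus in the medial neocortex of mouse embryos at E16.5 (E for embryonic day), with 2 libraries per genotype. Each library came from a separate brain according to the methods. Both control libraries came from *Sst-Cre/tdTomato* embryos, in which Cre marks cells of the somatostatin (*Sst*) lineage with the red fluorescent protein tdTomato. Both Dnmt1 KO libraries came from *Sst-Cre/tdTomato/Dnmt1 loxP2* embryos, in which Cre in addition deletes the loxP-flanked exons of *Dnmt1* (encoding DNA methyltransferase 1), which gives a null allele. Cre acts in *Sst*-expressing postmitotic interneurons, so that by design all other cells of a Dnmt1 KO embryo keep their *Dnmt1* alleles. The counts do not mark the recombined nuclei.

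Cadherins are calcium-dependent adhesion proteins of the cell surface. Classical cadherins bind a cadherin of a neighbouring cell with their outermost extracellular domain, and inside the cell they are tied to the actin cytoskeleton by catenins. Type II cadherins are known in the developing brain for combinatorial patterns, in which layers, nuclei and axon tracts carry different sets of members, and for selective binding within the subgroups *Cdh6*, *Cdh9* and *Cdh10*, *Cdh8* and *Cdh11*, and *Cdh7*, *Cdh12* and *Cdh18*. *Cdh13* lacks the membrane-spanning and cytoplasmic parts and is held at the surface by a lipid anchor.

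The kinds can be told apart in the coding sequence. A classical cadherin is cut by furin, and the new first strand of the mature protein is exchanged with that of the binding partner, with tryptophan side chains as the anchor. The windows below hold 45 coding bases per gene, which are the 4 codons of the cleavage site and the first 11 codons of the mature protein. They are shown because the number of tryptophan codons (TGG, in capitals) separates the kinds. They were read from GRCm39 with the GENCODE vM39 annotation, each lies inside a single coding exon, and positions are counted from the first residue after the cut.

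Cdh4 (chr2:179439341-179439385, plus strand, exon 4): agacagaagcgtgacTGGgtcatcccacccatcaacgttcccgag
Cdh13 (chr8:119484143-119484187, plus strand, exon 4): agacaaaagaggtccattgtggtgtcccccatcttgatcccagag
Cdh6 (chr15:13091772-13091816, minus strand, exon 2): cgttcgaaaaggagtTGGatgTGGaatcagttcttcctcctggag
Cdh9 (chr15:16778331-16778375, plus strand, exon 2): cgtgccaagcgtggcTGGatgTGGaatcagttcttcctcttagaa
Cdh10 (chr15:18899825-18899869, plus strand, exon 2): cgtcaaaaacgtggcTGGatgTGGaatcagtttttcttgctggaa
Cdh8 (chr8:100127394-100127438, minus strand, exon 2): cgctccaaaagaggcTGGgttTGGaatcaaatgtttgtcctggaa
Cdh11 (chr8:103406280-103406324, minus strand, exon 3): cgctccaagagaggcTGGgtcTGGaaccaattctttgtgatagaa
Cdh7 (chr1:109922039-109922083, plus strand, exon 3): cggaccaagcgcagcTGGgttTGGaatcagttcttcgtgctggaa
Cdh12 (chr15:21237917-21237961, plus strand, exon 2): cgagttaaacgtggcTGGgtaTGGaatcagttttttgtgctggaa
Cdh18 (chr15:23173935-23173979, plus strand, exon 2): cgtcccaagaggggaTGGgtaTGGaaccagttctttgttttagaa

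All 8 type II members carried 2 tryptophan codons in this window, at positions 2 and 4. *Cdh4* carried 1, at position 2, and *Cdh13* carried 0. The proteins were 913 residues long for *Cdh4* and 714 for *Cdh13*. On the genome, 5 members (*Cdh6*, *Cdh9*, *Cdh10*, *Cdh12* and *Cdh18*) lie on chromosome 15 and 3 (*Cdh8*, *Cdh11* and *Cdh13*) on chromosome 8. *Cdh4* lies on chromosome 2 and *Cdh7* on chromosome 1. The genes are long, from 128.7 kb for *Cdh9* to 1140.3 kb for *Cdh12*. *Cdh8* overlaps the non-coding gene *A330008L17Rik* on the opposite strand, and whether the counting used strand was not given in the sources used here.

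After filtering, 29656 nuclei with 1500 to 60000 transcripts remained, from 4905 to 12064 per library. The median nucleus held 12274 to 12401 transcripts in 3 libraries and 21140 in control replicate 2, which is the only library of batch 2. No barcode was shared between libraries. Marker lists assigned 18719 nuclei (63.1%) to 18 classes, and 12 classes had at least 30 nuclei in each library. No cadherin was among the markers. Levels are given as CPM, the transcripts of a gene scaled to a fixed number of transcripts of the class in that library, and SD is over the 4 libraries of both genotypes. *Dnmt1* was at 61.8 and 47.5 CPM in Dnmt1 KO, compared with 59.6 and 56 CPM in control replicates 1 and 2. In nuclei with a transcript of both *Sst* and *Gad2*, it was at 76.1 and 46.1 CPM in Dnmt1 KO, against 81.2 and 66.5 CPM in controls. The genotypes overlapped in both populations. These counts cover the whole gene and not the deleted exons alone, so they do not check the labelled genotypes.

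The class with the highest mean was layer 6 corticothalamic neurons for 4 of the 10 members (*Cdh9*, *Cdh11*, *Cdh13* and *Cdh18*), Cajal-Retzius cells for *Cdh4* and *Cdh7*, migrating newborn excitatory neurons for *Cdh8* and *Cdh10*, upper-layer neurons for *Cdh12* and radial glia for *Cdh6*. Between the class with the highest mean and that with the lowest, a member's level differed from 6.58-fold (*Cdh10*) to 41.3-fold (*Cdh13*). *Cdh9* spanned 86.8-fold, but its lowest class held 7 transcripts.

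**Figure D1:**
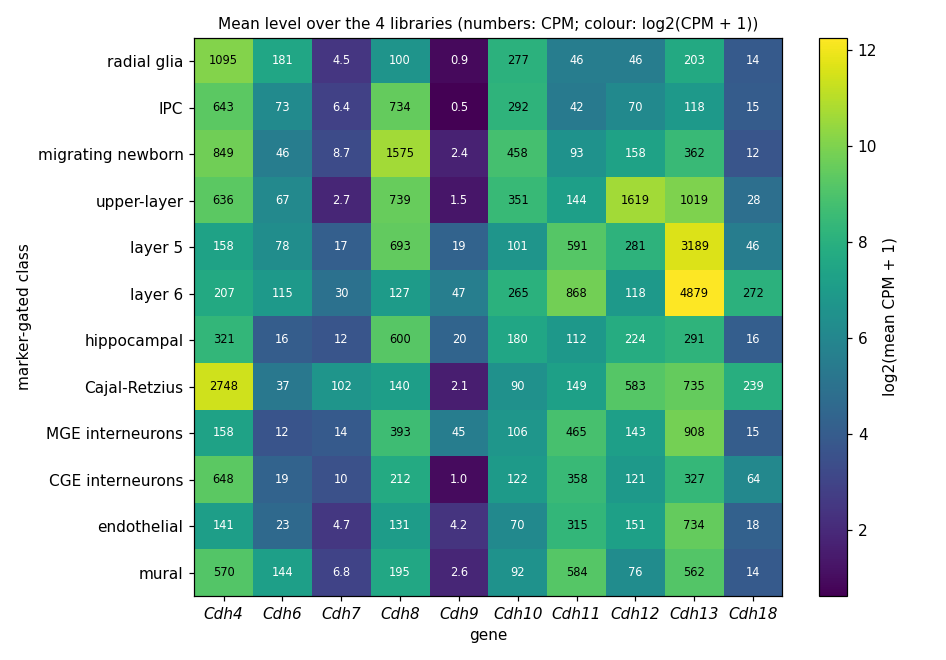
Mean CPM over the 4 libraries of each of the 10 cadherins (columns) in each of the 12 classes (rows), printed in the cells and coloured on a log2(CPM + 1) scale. *Cdh13* stands out in layer 6 with 4879 CPM, *Cdh4* in Cajal-Retzius cells with 2748 CPM, *Cdh12* in upper-layer neurons with 1619 CPM and *Cdh8* in migrating newborn neurons with 1575 CPM.

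*Cdh4*, first known from the retina, reached 2875 and 2415 CPM in the Cajal-Retzius cells of Dnmt1 KO replicates 1 and 2, against 2604 and 3096 CPM in those of control replicates 1 and 2. The lowest of these values lay above the highest of any other class. Radial glia came next, with 692, 1372, 1204 and 1114 CPM in the same order of libraries. Their range overlapped that of migrating newborn neurons (849 ± 291 CPM, SD, n = 4), and these overlapped intermediate progenitors (IPC, 643 ± 171 CPM), CGE interneurons (648 ± 161 CPM) and upper-layer neurons (636 ± 240 CPM). The MGE and CGE interneurons are named after the medial and caudal ganglionic eminences, in which these cells are born. *Cdh4* was low in MGE interneurons (158 ± 32 CPM), layer 5 neurons (158 ± 84.4 CPM) and endothelial cells (141 ± 64.1 CPM).

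Of the subgroup with *Cdh6*, *Cdh9* and *Cdh10*, *Cdh6* had its highest mean in radial glia. It was at 86.8 and 272 CPM in the radial glia of Dnmt1 KO replicates 1 and 2, compared with 208 and 157 CPM in those of controls. Mural cells (144 ± 40.3 CPM) and layer 6 neurons (115 ± 55.3 CPM) overlapped with radial glia, so the order of these 3 classes was not resolved. *Cdh6* was lowest in MGE interneurons, at 11.5 ± 4.18 CPM, and Dnmt1 KO replicate 1 held 6.28 CPM there.

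*Cdh9* was found in few cells. In layer 6 neurons it stood at 62.3 and 39.1 CPM in Dnmt1 KO, compared with 54.8 and 33.6 CPM in control replicates 1 and 2. In MGE interneurons it stood at 36.7 and 42.7 CPM in Dnmt1 KO, against 47.3 and 54.3 CPM in controls. These classes overlapped each other and lay apart from the other 10. In CGE interneurons, the other interneuron class, *Cdh9* was at 0, 0.594, 1.16 and 2.09 CPM. Nuclei with transcripts of both *Sst* and *Gad2* held 107 ± 48.7 CPM, with 178 CPM in the 16 such nuclei of Dnmt1 KO replicate 1.

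*Cdh10* was the member spread most evenly. It was highest in migrating newborn neurons, at 445 and 462 CPM in Dnmt1 KO, compared with 519 and 408 CPM in control libraries. Upper-layer neurons (351 ± 68.8 CPM), IPC (292 ± 20 CPM), radial glia (277 ± 18.1 CPM) and layer 6 neurons (265 ± 56.2 CPM) followed with overlapping ranges. The SD over the libraries was small against the mean in IPC and in radial glia.

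*Cdh8* and *Cdh11*, of the same binding subgroup, were highest in different classes. *Cdh8* was at 1388 and 1623 CPM in the migrating newborn neurons of Dnmt1 KO, against 1681 and 1609 CPM in those of controls, above every library of the other 11 classes. It was lower in upper-layer neurons (739 ± 270 CPM), IPC (734 ± 173 CPM) and layer 5 neurons (693 ± 178 CPM), and lowest in radial glia (99.6 ± 37.7 CPM) and layer 6 neurons (127 ± 20.1 CPM). *Cdh11*, known for its part in mesenchymal tissue, was highest in layer 6 neurons, at 1039 and 822 CPM in Dnmt1 KO, compared with 888 and 725 CPM in control libraries. Layer 5 neurons (591 ± 124 CPM), mural cells (584 ± 89.7 CPM) and MGE interneurons (465 ± 71.5 CPM) followed, and IPC were lowest with 42 ± 18.4 CPM. The highest library of layer 5 neurons (729 CPM) overlapped layer 6 neurons, so the order of these classes was not resolved. In the meningeal fibroblasts, which were frequent in Dnmt1 KO replicate 2 and nearly missing from the other libraries, *Cdh11* stood at 1213 CPM.

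Of the subgroup with *Cdh7*, *Cdh12* and *Cdh18*, *Cdh12* was the leading member of the upper layers. It was at 788 and 1864 CPM in the upper-layer neurons of Dnmt1 KO replicates 1 and 2, against 1755 and 2066 CPM in those of control replicates 1 and 2. Dnmt1 KO replicate 1 was thus low, and its 139 upper-layer nuclei were the fewest of the 4 libraries. In these nuclei the 6 markers of migrating newborn neurons summed to 10900 CPM, against 5470 to 7010 CPM in the other libraries, and the 7 upper-layer markers to 7450 CPM, against 8980 to 9510 CPM. *Cdh8* was at 1138 CPM in the same nuclei, against 545 to 647 CPM elsewhere. The part of these markers in the 2 gene levels was not tested. Even with this library *Cdh12* lay above all other classes, of which Cajal-Retzius cells (583 ± 104 CPM) and layer 5 neurons (281 ± 99.8 CPM) came next, and radial glia were lowest with 45.9 ± 10.3 CPM.

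*Cdh7* was at 95.6 and 126 CPM in the Cajal-Retzius cells of Dnmt1 KO, against 102 and 86.2 CPM in those of controls, apart from every other class. Layer 6 neurons followed with 29.9 ± 11.3 CPM, and upper-layer neurons were lowest with 2.68 ± 1.06 CPM. *Cdh18* was high in layer 6 neurons, at 218 and 232 CPM in Dnmt1 KO, compared with 375 and 262 CPM in controls. It was also high in Cajal-Retzius cells, at 150 and 226 CPM in Dnmt1 KO, against 301 and 278 CPM in controls. The ranges of these classes overlapped. Migrating newborn neurons were lowest with 11.9 ± 2.21 CPM. In the 58 subplate nuclei of Dnmt1 KO replicate 2, the only library with enough of them, *Cdh18* was at 736 CPM and *Cdh10* at 720 CPM.

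*Cdh13* was at 5809 and 4155 CPM in the layer 6 neurons of Dnmt1 KO, compared with 4754 and 4797 CPM in those of controls. Layer 5 neurons followed, with 4347, 2310, 3193 and 2903 CPM in the same order. In both classes Dnmt1 KO replicate 1 was the highest library and Dnmt1 KO replicate 2 the lowest. Upper-layer neurons held 1019 ± 199 CPM, MGE interneurons 908 ± 227 CPM and endothelial cells, where T-cadherin is known as a vascular protein, 734 ± 225 CPM. Radial glia (203 ± 32.6 CPM) and IPC (118 ± 94.2 CPM) were lowest.

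**Figure D2:**
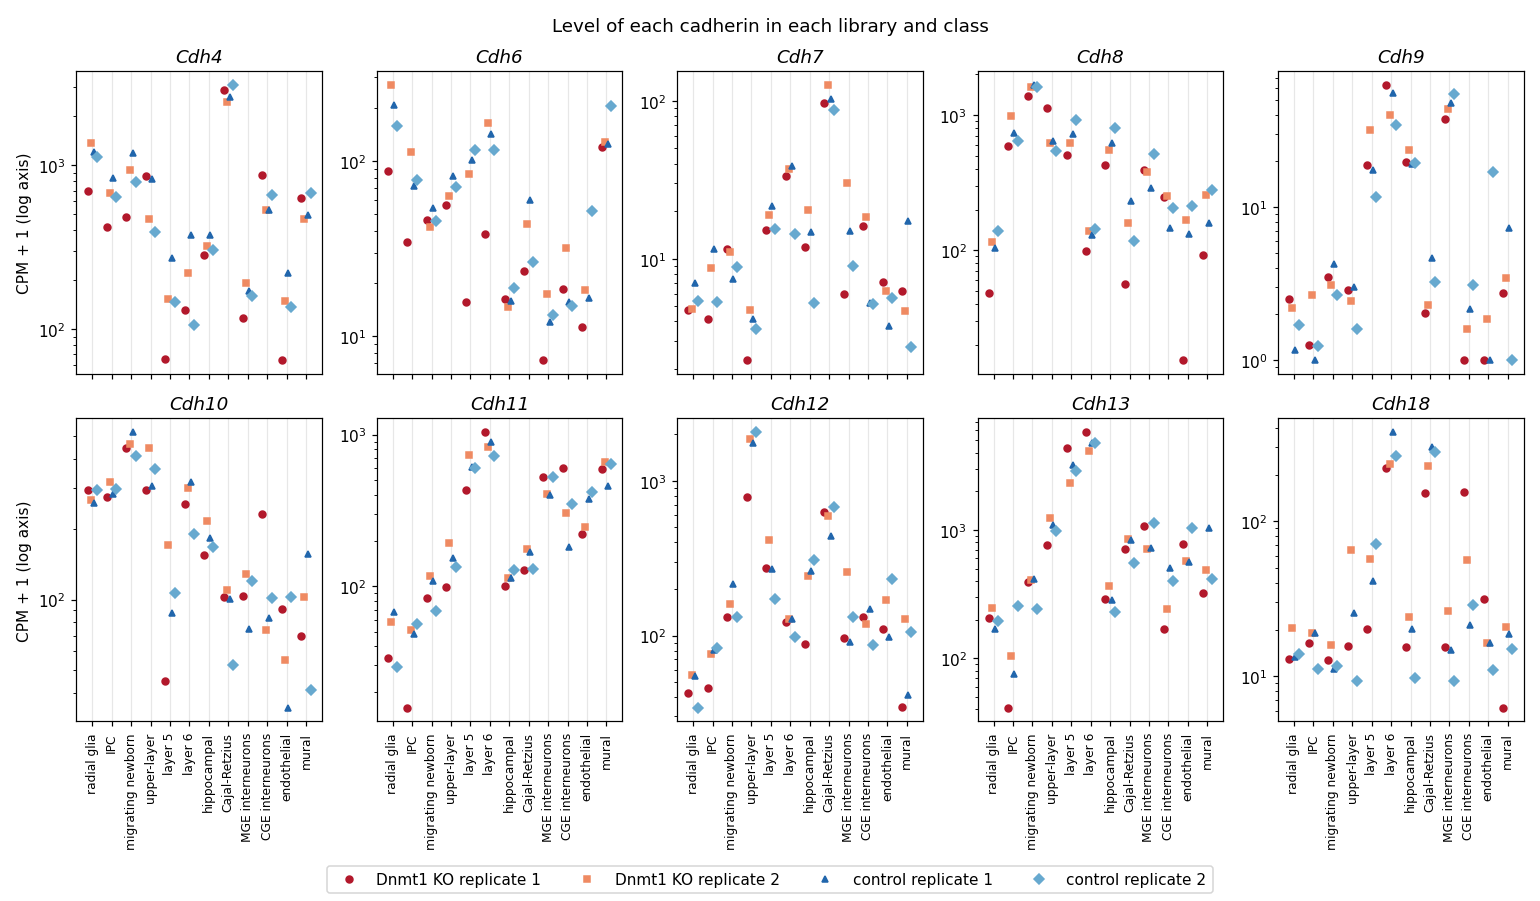
CPM + 1 (log axis) of each cadherin (panels) in each class (horizontal axis), with 1 symbol per library: red circles and orange squares are Dnmt1 KO replicates 1 and 2, dark blue triangles and light blue diamonds control replicates 1 and 2. The libraries of a class spread enough that many neighbouring classes overlap, as for *Cdh6* in radial glia (86.8 to 272 CPM) and mural cells (120 to 204 CPM), whereas *Cdh8* in migrating newborn neurons (1388 to 1681 CPM) lies apart from every other class.

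Because a long gene can collect more transcripts, members were compared with each other per kb of annotated exon. Over all retained nuclei *Cdh13* was highest with 151 CPM per kb, followed by *Cdh4* (66.2), *Cdh12* (58.9) and *Cdh8* (57.0). *Cdh7* was lowest with 1.59 CPM per kb. Per 100 kb of the whole gene, introns included, the order was another one, with *Cdh11* (220) before *Cdh13* (167) and *Cdh8* (144), *Cdh12* at 37.2, and *Cdh18* lowest with 9.23 CPM per 100 kb. In layer 6 neurons *Cdh13* stood at 423 and *Cdh11* at 74.8 CPM per kb, in Cajal-Retzius cells *Cdh4* stood at 377 and *Cdh12* at 81.0 CPM per kb, and in upper-layer neurons *Cdh12* stood at 225 and *Cdh13* at 88.3 CPM per kb. Per 100 kb of the whole gene *Cdh11* (564) came before *Cdh13* (469) in layer 6 neurons and *Cdh8* (188) before *Cdh12* (142) in upper-layer neurons. In Cajal-Retzius cells *Cdh4* led on both scales.

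The 10 members together were most abundant in layer 6 neurons, with 6928 ± 713 CPM (SD, n = 4), and layer 5 neurons, with 5173 ± 480 CPM. Cajal-Retzius cells (4825 ± 142 CPM) and upper-layer neurons (4606 ± 430 CPM) had nearly as much, and endothelial cells (1592 ± 417 CPM), the hippocampal lineage (1792 ± 267 CPM) and CGE interneurons (1882 ± 381 CPM) had the lowest means, within 1 SD of radial glia (1968 ± 413 CPM) and IPC (1995 ± 394 CPM). As counted and without a correction for length, *Cdh13* made up 70.4% of the sum in layer 6 and 61.6% in layer 5 neurons. *Cdh4* made up 56.9% in Cajal-Retzius cells and 55.7% in radial glia, *Cdh8* 44.2% in migrating newborn neurons and *Cdh12* 35.1% in upper-layer neurons. In CGE interneurons *Cdh4* was the leading member by this count (34.5%), and in MGE interneurons it was *Cdh13* (40.2%).

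**Figure D3:**
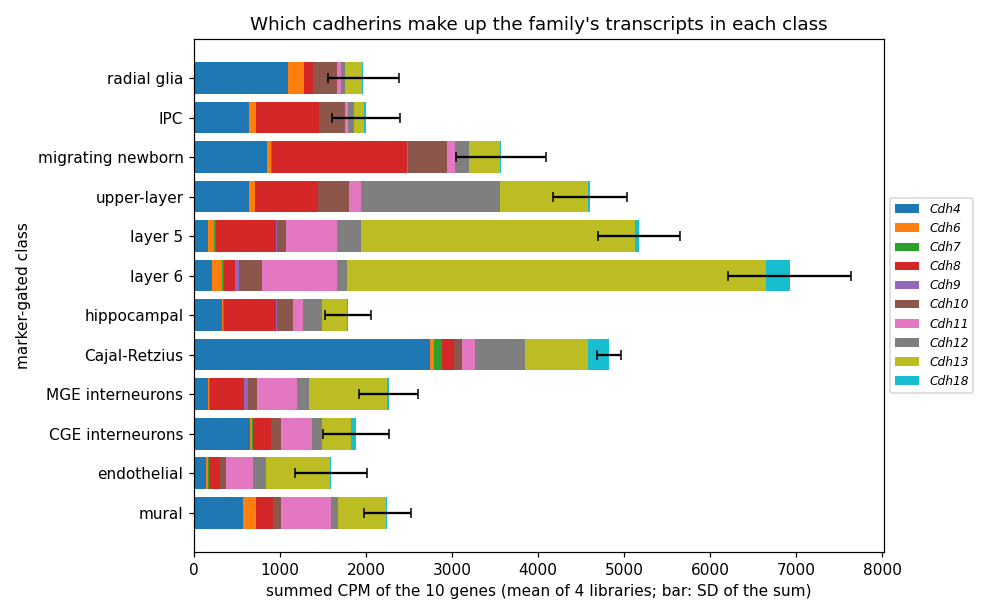
Summed CPM of the 10 cadherins in each class (mean of 4 libraries, stacked by gene, not corrected for gene length), with the black bar as the SD of the sum over the libraries. The sum runs from 1592 CPM in endothelial cells to 6928 CPM in layer 6 neurons, and the leading gene changes from *Cdh4* in radial glia to *Cdh8* in migrating newborn, *Cdh12* in upper-layer and *Cdh13* in deep-layer neurons.

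Within a class the members were also counted nucleus by nucleus, after every nucleus had been thinned at random to 5000 transcripts, which left out 1897 shallower nuclei. *Cdh13* had at least 1 transcript in 98.7% of 2972 layer 6 nuclei (exact 95% interval 98.2 to 99.1%, counting error only, 98.4% before thinning) and in 28.6% of 2154 radial glia (26.7 to 30.6%, 41.3% before thinning). *Cdh4* was found in 94.6% of 410 Cajal-Retzius nuclei (92 to 96.6%) and in 89.7% of radial glia (88.4 to 91%). *Cdh8* was found in 87.3% of 1733 migrating newborn neurons (85.6 to 88.8%) and *Cdh12* in 75.7% of 2402 upper-layer neurons (73.9 to 77.4%). *Cdh9* was found in 10.2% of layer 6 nuclei, 7.28% of 2047 MGE interneurons and 0.349% of 1147 IPC. As a measure of free RNA, the endothelial cadherin *Cdh5* was found in 64.9% of 387 endothelial nuclei, in 0.0872% of IPC (exact 95% interval 0.00221 to 0.485%) and in 0.186% of radial glia (0.0506 to 0.475%). Over all classes but the endothelial cells it was 0.649% of 17573 nuclei, of which meningeal fibroblasts, at 31.4%, held 77 of the 114 positive nuclei. *Cdh9* in IPC (0.0951 to 0.89%) and in radial glia (0.325%, 0.131 to 0.668%) had a larger share than *Cdh5* in the same class, with overlapping intervals, so that a level above free RNA was not resolved at this depth. Over all retained nuclei *Cdh5* (4.01 CPM) was also less abundant than *Cdh9* (17.5 CPM), so it is no matched gauge for the free RNA of *Cdh9*. *Cdh5* is far less abundant than *Cdh13* and gives no gauge for it. The share of nuclei with *Cdh13* was lowest in IPC (15.5%), and the part of free RNA in the low shares of *Cdh13*, that of radial glia included, was not tested. Thinned nuclei carried 3.13 to 3.65 of the 10 members on average in layer 6 neurons, 3.56 to 3.89 in upper-layer neurons, 3.45 to 3.98 in Cajal-Retzius cells and 2 to 2.4 in MGE interneurons.

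Across the 12 classes, *Cdh11* and *Cdh13* varied together (Pearson r 0.80 of log2(CPM + 1)), as did *Cdh7* and *Cdh18* (0.77) and *Cdh9* and *Cdh13* (0.68). *Cdh4* and *Cdh9* varied in opposite directions (-0.72). These values describe 12 classes that share their 4 libraries. Among 8769 genes, the pattern most like that of *Cdh8* was that of *A330008L17Rik* (r 0.955), the transcript that overlaps it on the opposite strand. The nearest patterns were those of *Sv2c* for *Cdh4* (0.887), *Gpc4* for *Cdh6* (0.839), *Trpm2* for *Cdh7* (0.951), *Rasgrf2* for *Cdh9* (0.896), *Tnrc18* for *Cdh10* (0.914), *Abi2* for *Cdh11* (0.957), *Sik2* for *Cdh12* (0.858), *Sla* for *Cdh13* (0.947) and *Dmtn* for *Cdh18* (0.883).

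Pairs of classes were then tested on counts summed per library and class, with edgeR's quasi-likelihood test, the library as a term and Benjamini-Hochberg adjustment over all genes (threshold 0.05). In 6 pairs of classes, 39 of 58 member tests passed. The share of all genes that passed is given beside each count, since many genes differ between cell classes.

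Upper-layer and layer 6 neurons are the late-born and early-born excitatory neurons of the cortex. Of the 10 members, 3 were higher and 6 lower in upper-layer neurons, against 36% of all 14952 genes called, 16.7% higher and 19.3% lower. The median log2 fold change was -1.62 over the members and 0.01 over all genes. *Cdh12* was higher by a log2 fold change of 3.56 (SE 0.291, edgeR adjusted p 0.000171), *Cdh8* by 2.33 (SE 0.239, adjusted p 0.000443) and *Cdh4* by 1.56 (SE 0.257, adjusted p 0.00362). Of the members that were lower, *Cdh9* changed most, with -5.18 (SE 0.159, edgeR adjusted p 5.26e-06). *Cdh18* (-3.74), *Cdh7* (-3.28), *Cdh11* (-2.74) and *Cdh13* (-2.42) followed. Upper-layer neurons held 0.595 to 2.03 CPM of *Cdh9* and 1.27 to 3.75 CPM of *Cdh7*. The sizes of these ratios thus rest on levels near the floor. *Cdh6* (-0.83, edgeR adjusted p 0.0366) did not pass without Dnmt1 KO replicate 2 (-0.60, adjusted p 0.141), control replicate 1 (-0.76, adjusted p 0.159) or control replicate 2 (-0.82, adjusted p 0.126), nor with library totals as the only scaling (-0.70, adjusted p 0.0645). *Cdh10* had 0.27 (SE 0.162, edgeR adjusted p 0.247).

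Layer 5 subcerebral neurons, which project to the brainstem and spinal cord, differed from layer 6 neurons in 7 of the 10 members, against 16.9% of all 14004 genes called (7.89% higher and 9.03% lower). The median was -0.68 over the members and 0 over all genes. *Cdh8* (2.39, SE 0.0938, edgeR adjusted p 2.05e-05) and *Cdh12* (1.15, SE 0.13, adjusted p 0.0012) were higher in layer 5. *Cdh18* (-2.65, edgeR adjusted p 0.00095), *Cdh10* (-1.52, adjusted p 0.0122), *Cdh9* (-1.35, adjusted p 0.01), *Cdh7* (-0.80, adjusted p 0.0349) and *Cdh13* (-0.68, adjusted p 0.00102) were lower. Without control replicate 1 only 4 members passed, as *Cdh10* (-1.39, edgeR adjusted p 0.0802), *Cdh9* (-1.24, adjusted p 0.066) and *Cdh7* (-0.75, adjusted p 0.153) missed the threshold. *Cdh7* also missed it without Dnmt1 KO replicate 1 (-0.66, adjusted p 0.0729) and without Dnmt1 KO replicate 2 (-0.70, adjusted p 0.151).

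Radial glia, the stem cells of the cortex, were compared with the IPC that they produce. Of 9 members tested, 3 were higher and 2 lower in radial glia, near the background of 50.8% of all 13699 genes (26.9% higher and 23.9% lower). The median was -0.13 over the members and 0.02 over all genes. *Cdh8* was lower in radial glia with -2.99 (SE 0.192, edgeR adjusted p 2.35e-06) and *Cdh12* with -0.67 (SE 0.159, adjusted p 0.00687). *Cdh6* was higher with 1.25 (SE 0.0909, edgeR adjusted p 4.99e-06) and *Cdh4* with 0.71 (SE 0.0797, adjusted p 7.35e-05). *Cdh13* (0.97, edgeR adjusted p 0.0392) missed the threshold without Dnmt1 KO replicate 1 (0.57, adjusted p 0.122), Dnmt1 KO replicate 2 (0.88, adjusted p 0.134) or control replicate 1 (0.93, adjusted p 0.123), and in DESeq2 (1.04, adjusted p 0.0981). *Cdh12* missed it under stricter gates (-0.22, adjusted p 0.151).

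IPC and the upper-layer neurons to which they give rise differed in 6 of 9 members, against 53.3% of all 12628 genes (25.9% higher and 27.4% lower in IPC), with medians of -0.67 and 0. *Cdh12* was lower in IPC by a log2 difference of -4.90 (SE 0.136, edgeR adjusted p 8.13e-07), *Cdh13* by -3.82 (SE 0.351, adjusted p 6.07e-05) and *Cdh11* by -2.25 (SE 0.182, adjusted p 3.03e-05). *Cdh10* (-0.67, edgeR adjusted p 0.000669) and *Cdh18* (-1.06, adjusted p 0.0301) were lower as well, and *Cdh7* (0.74, adjusted p 0.0404) was the 1 member that was higher. *Cdh18* missed the threshold without Dnmt1 KO replicate 2 (-0.47, edgeR adjusted p 0.109) without control replicate 1 (-1.10, adjusted p 0.0888) and with library totals (-0.62, adjusted p 0.134). *Cdh7* missed it without Dnmt1 KO replicate 2 (0.83, edgeR adjusted p 0.0933) without control replicate 1 (0.49, adjusted p 0.227), in DESeq2 (0.78, adjusted p 0.0968) and under stricter gates (0.53, adjusted p 0.282). Scaling by library totals alone moved the median of all genes by 0.44 on the log2 scale in this pair, and the small differences of *Cdh4*, *Cdh6* and *Cdh8* then changed sign.

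The interneurons of both origins differed in 5 of the 10 members, against 13.8% of all 11536 genes (6.48% higher and 7.33% lower in MGE interneurons), with medians of 0.38 and 0. *Cdh9* had the widest difference, with a log2 value of 5.47 in favour of MGE interneurons (SE 0.259, edgeR adjusted p 7.72e-07). CGE interneurons held 0 to 2.09 CPM of *Cdh9*, so it entered this test through MGE interneurons. The size of its ratio rests on levels near the floor. *Cdh13* (1.51, edgeR adjusted p 0.00266) and *Cdh8* (0.93, adjusted p 0.000408) were also higher in MGE interneurons. *Cdh4* (-1.96, SE 0.19, edgeR adjusted p 8.23e-05) and *Cdh18* (-1.55, SE 0.339, adjusted p 0.0123) were higher in CGE interneurons. *Cdh18* missed the threshold without control replicate 2 (-1.48, edgeR adjusted p 0.0604), and the CGE interneurons of Dnmt1 KO replicate 1 were 33 nuclei.

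Against excitatory neurons of all layers, 7 of the 10 members were lower in MGE interneurons and 0 higher. Of all 15649 genes 36% were called, 16.2% higher and 19.8% lower. The median was -1.10 over the members and -0.01 over all genes. *Cdh18* (-3.39, SE 0.233, edgeR adjusted p 2.22e-05), *Cdh6* (-3.07, SE 0.131, adjusted p 2.24e-06), *Cdh12* (-2.19, SE 0.275, adjusted p 0.000556) and *Cdh13* (-2.06, SE 0.135, adjusted p 1.67e-05) were lower by the widest margin. *Cdh10* (-1.32) and *Cdh4* (-0.87) were lower too. *Cdh11* (-0.48, edgeR adjusted p 0.02) missed the threshold without Dnmt1 KO replicate 1 (-0.44, adjusted p 0.0507), Dnmt1 KO replicate 2 (-0.39, adjusted p 0.0955) or control replicate 1 (-0.40, adjusted p 0.1), with doublets left out (-0.40, adjusted p 0.0528) and with a filter on mapped reads (-0.34, adjusted p 0.167). *Cdh8* (-0.14) did not pass, but under stricter gates it passed in the other direction (0.58, edgeR adjusted p 0.0258). *Cdh9* was the only member with a positive value, 0.67 (SE 0.232, edgeR adjusted p 0.0578). The excitatory group pooled upper-layer, layer 5 and layer 6 neurons. Upper-layer nuclei were 139 of 1106 in Dnmt1 KO replicate 1 and 776 of 1716 in control replicate 2. Of the called members, only *Cdh6*, *Cdh13* and *Cdh18* had a lower mean in MGE interneurons than in each layer. *Cdh12* (143 CPM) lay above layer 6 (118 CPM), *Cdh10* (106) above layer 5 (101) and *Cdh11* (465) above upper-layer neurons (144). *Cdh4* was level with layer 5 (158 CPM each).

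**Figure D4:**
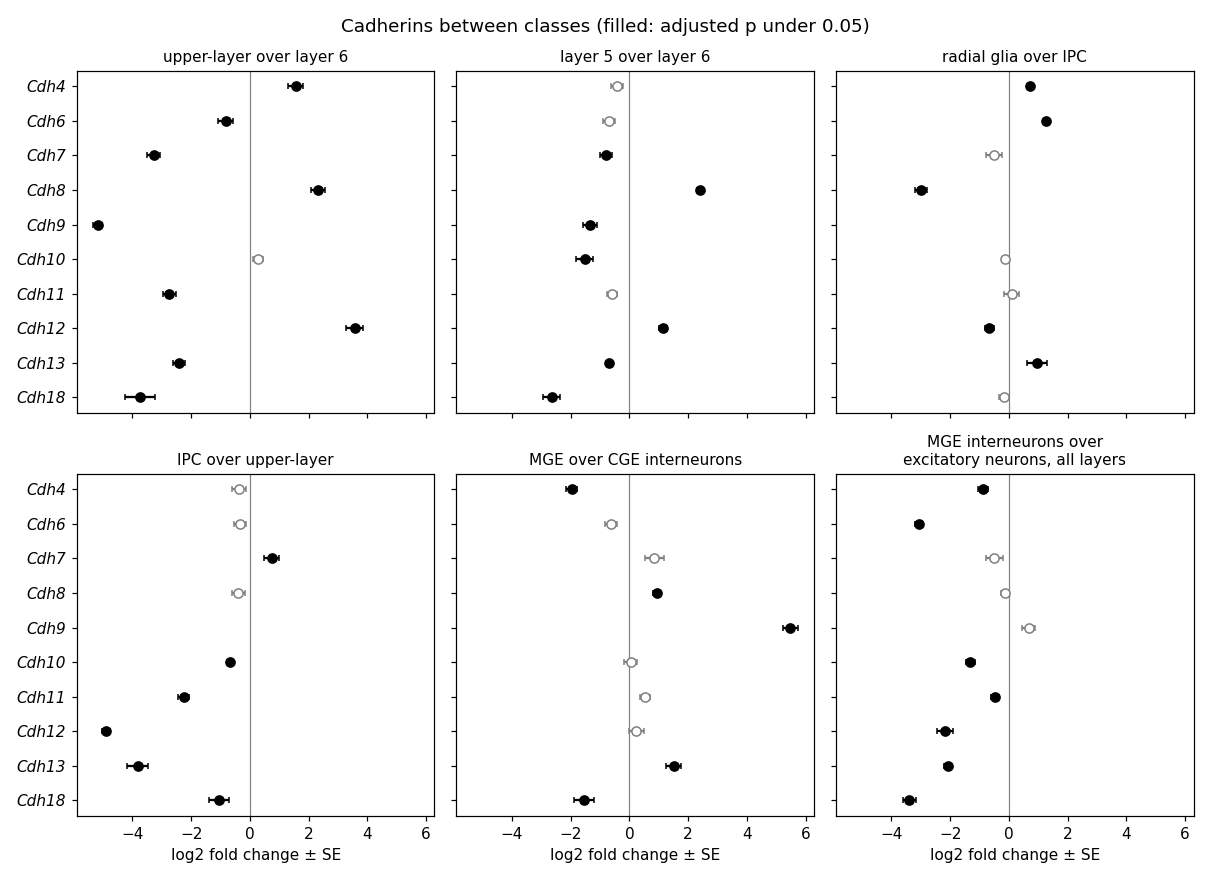
Log2 fold change ± SE (horizontal axis) of the 10 cadherins between pairs of classes (panels), with filled symbols for an adjusted p under 0.05 and open symbols otherwise. In the upper-layer panel *Cdh12* (3.56) and *Cdh9* (-5.18) lie at opposite ends, and *Cdh9* is the widest positive value in the panel of interneurons (5.47). Both *Cdh9* values are ratios to a class near the floor (at most 2.03 CPM in upper-layer neurons and 2.09 CPM in CGE interneurons).

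The genotypes were compared next, since the study deleted *Dnmt1* in interneurons and asked how these cells and the excitatory lineage around them were affected. Within 15 populations (the 12 classes, all retained nuclei, excitatory neurons of all layers together and the *Sst*+/*Gad2*+ nuclei), 141 member tests could be fitted. With edgeR 0 passed the adjusted threshold, and 0% of all genes were called in any of the populations. DESeq2 also called 0 members, with 0% (*Sst*+/*Gad2*+ nuclei, CGE interneurons) to 0.911% (all retained nuclei) of all genes called, 0.119% in excitatory neurons of all layers and 0.0157% in MGE interneurons. The smallest edgeR adjusted p of a member was 0.655. At an unadjusted p under 0.05 there were 12 of 141 member tests (8.51%), against 5% of the tests of all genes, where the populations ranged from 2.37% to 7.51%. Of these 12, 5 were in CGE interneurons alone. The pooled populations hold nuclei of the classes, so the 141 tests are not separate and the share is no sign of an excess. Only 2 libraries per genotype were compared, and what size of difference could be called was not measured. In 103 of 120 combinations of member and class, the gap between replicates was wider than the gap between the genotype means. The replicate gap was the wider of the Dnmt1 KO gap and the control gap, on the log2(CPM + 1) scale. Taking the wider gap favours this outcome, and no share over all genes was computed.

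Over all retained nuclei, *Cdh8* was at 517 and 534 CPM in Dnmt1 KO, against 588 and 632 CPM in control replicates 1 and 2. *Cdh18* was at 50.6 and 93.4 CPM in Dnmt1 KO, compared with 99.9 and 97.8 CPM in controls. *Cdh9* was at 18.7 and 20.5 CPM in Dnmt1 KO, against 18.2 and 12.6 CPM in controls. For these 3 members Dnmt1 KO and control ranges were apart, and the same held for 40.1% of all 21402 genes tested there. The class make-up of the libraries differed as well. Upper-layer neurons were 2.46 and 7.72% of nuclei in Dnmt1 KO, against 8.85 and 15.8% in controls. The hippocampal lineage was 6.52 and 5.51% in Dnmt1 KO, against 1.96 and 2.51% in controls. The part of this make-up in the levels of these members was not tested. The log2 fold changes were -0.23 for *Cdh8* (SE 0.113, edgeR adjusted p 0.655), -0.47 for *Cdh18* (SE 0.304, adjusted p 0.699) and 0.34 for *Cdh9* (SE 0.194, adjusted p 0.675). That of *Cdh18* moved to -0.09 without Dnmt1 KO replicate 1, to -0.99 without Dnmt1 KO replicate 2 and to -0.13 with a filter on mapped reads (edgeR unadjusted p 0.766). Within batch 1 (without control replicate 2) that of *Cdh9* was 0.12 and that of *Cdh8* -0.15, and that of *Cdh9* was 0.61 without control replicate 1 and 0.22 in thinned nuclei.

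MGE interneurons include, by design, the cells in which *Dnmt1* is deleted. *Cdh18* was at 14.5 and 25.2 CPM in Dnmt1 KO, compared with 13.7 and 8.26 CPM in controls, with a log2 fold change of 0.98 (SE 0.322, unadjusted p 0.0196, edgeR adjusted p 0.826). It was 0.48 without Dnmt1 KO replicate 2, 0.66 within batch 1 (without control replicate 2) and 0.63 in thinned nuclei. *Cdh9* was at 36.7 and 42.7 CPM in Dnmt1 KO, against 47.3 and 54.3 CPM in controls, with a log2 fold change of -0.29 (SE 0.143, edgeR adjusted p 0.827), -0.18 within batch 1 and in thinned nuclei, and -0.10 with doublets left out (unadjusted p 0.621). In both cases the genotypes did not overlap, as for 37.9% of all 12764 genes in this class. *Cdh12* was at 94.9, 257, 89.3 and 131 CPM, with Dnmt1 KO replicate 2 high, and the log2 fold change of 0.76 (SE 0.414, edgeR adjusted p 0.844) was -0.14 without that library, 1.28 without Dnmt1 KO replicate 1 and 0.50 without control replicate 1. It was 1.51 with doublets left out (unadjusted p 0.00647, adjusted p 0.901) and 1.27 with the filter on mapped reads. *Cdh13* (1079, 704, 721 and 1129 CPM) and *Cdh11* (527, 405, 401 and 527 CPM) differed more within each genotype than between them, with log2 fold changes of 0.01 and 0.07. *Sst* itself was at 6.61 and 22.6 CPM in Dnmt1 KO, compared with 6.64 and 4.78 CPM in control MGE interneurons, and so was highest in the same library as *Cdh12*. The part of this difference in the levels of *Cdh12* and *Cdh18* was not tested.

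*Sst*+/*Gad2*+ nuclei are the closest to the targeted cells that the counts allow, with 16 and 136 nuclei in Dnmt1 KO and 40 and 27 in controls. *Cdh12* was at 42.3 and 471 CPM in Dnmt1 KO, against 144 and 21.7 CPM in controls. The log2 value of 1.78 (SE 1.03, edgeR adjusted p 1) became -0.93 without Dnmt1 KO replicate 2, 3.74 without control replicate 1 and 0.96 within batch 1. Without Dnmt1 KO replicate 1 it was 2.52 with an edgeR adjusted p of 0.00654, a call that the fit with all libraries did not make and that rests on 1 Dnmt1 KO library. In that fit 0.362% of all genes were called. With a filter on mapped reads *Cdh12* was at 0.94. *Cdh18* (4.23, 41.4, 15.8 and 7.22 CPM) was likewise highest in Dnmt1 KO replicate 2, with 1.42 (SE 0.74, edgeR adjusted p 1), -1.35 without Dnmt1 KO replicate 2 and 2.14 without control replicate 1. For scale, 20 transcripts of *Sst* were 84.6 CPM in these nuclei of Dnmt1 KO replicate 1. The *Cdh18* level of that library was thus near the floor, and these fold changes rest on very few transcripts. *Cdh8* (436, 439, 308 and 538 CPM) and *Cdh11* (465, 451, 308 and 435 CPM) were close to each other in the Dnmt1 KO libraries, with log2 fold changes of 0.11 (SE 0.292) and 0.36 (SE 0.24).

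**Figure D5:**
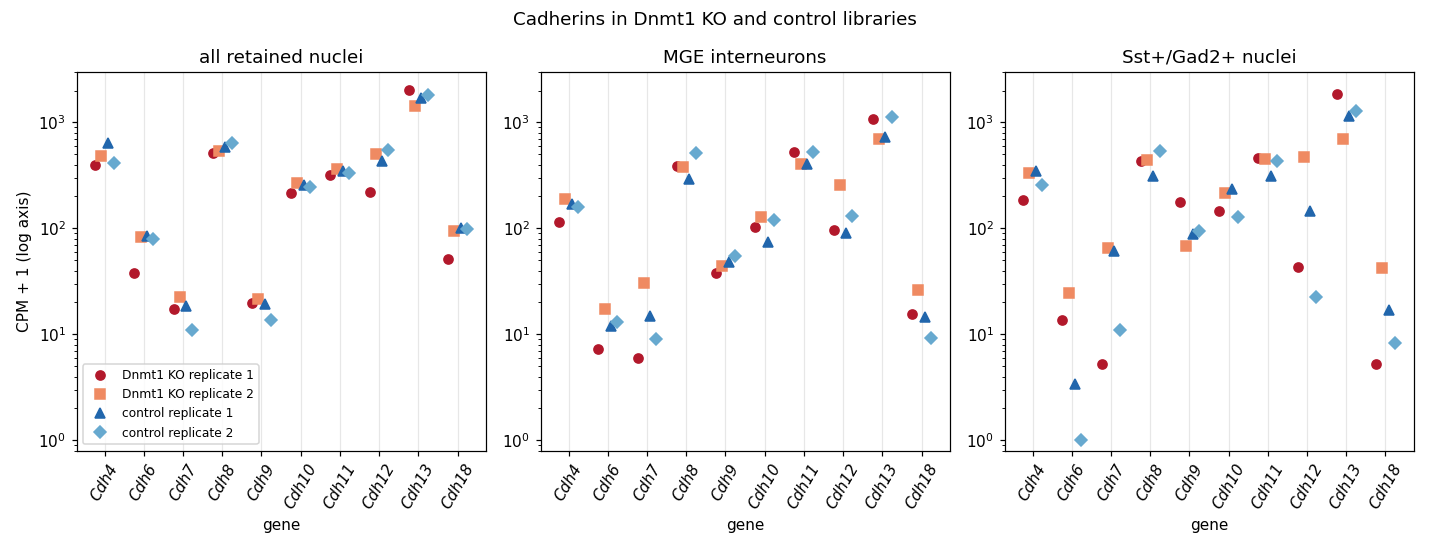
CPM + 1 (log axis) of the 10 cadherins in all retained nuclei, MGE interneurons and *Sst*+/*Gad2*+ nuclei, with 1 symbol per library as named in the key. *Cdh12* in *Sst*+/*Gad2*+ nuclei spans 21.7 to 471 CPM, with a control library lowest and a Dnmt1 KO library highest, and the other Dnmt1 KO and control libraries at 42.3 and 144 CPM.

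CGE interneurons held the most member tests with a small unadjusted p, 5 of 9 under 0.05, against 2.58% of all 9868 genes tested in this class, and 0 passed the adjusted threshold. *Cdh13* was at 167 and 240 CPM in Dnmt1 KO, compared with 501 and 401 CPM in controls (-1.10, SE 0.225, unadjusted p 0.00167, edgeR adjusted p 1). *Cdh7* was at 15.2 and 17.5 CPM in Dnmt1 KO, against 4.26 and 4.18 CPM in controls (2.01, SE 0.44, unadjusted p 0.00239). *Cdh18* was at 154 and 55.3 CPM in Dnmt1 KO, compared with 20.5 and 27.9 CPM in controls (2.01, SE 0.489, unadjusted p 0.00423). *Cdh6* (0.93) and *Cdh8* (0.52) had unadjusted p-values of 0.0305 and 0.0495. In each of these the genotypes did not overlap, as for 32.3% of all genes there. Other markers moved in this class too: the 7 markers of striatal neurons summed to 1010 and 1270 CPM in Dnmt1 KO and to 2560 and 1340 CPM in controls, and the 6 of Cajal-Retzius cells to 1290 and 1250 CPM in Dnmt1 KO and to 576 and 954 CPM in controls. Their part in the cadherin levels was not tested. Filtering nuclei on mapped reads in place of transcripts moved *Cdh13* to -0.16 and *Cdh7* to 1.27, and leaving out doublets moved *Cdh8* to 0.08. Thinning moved *Cdh13* to -0.69 and stricter gates moved *Cdh6* to 1.48. Without Dnmt1 KO replicate 1, which held 33 of these nuclei, *Cdh18* was at 1.25 (edgeR adjusted p 0.999), and without Dnmt1 KO replicate 2 *Cdh6* was at 0.30. Without control replicate 1 *Cdh8* was at 0.26, and without control replicate 2 at 0.81. Without control replicate 2 (within batch 1) 3 members passed, *Cdh13* with -1.21 (edgeR adjusted p 0.00574), *Cdh18* with 2.24 (adjusted p 0.00101) and *Cdh11* with 1.33 (adjusted p 0.00974), as did 0.658% of all genes. That fit holds 1 control library, assumed to vary like the Dnmt1 KO libraries.

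Outside the interneurons, *Cdh11* in endothelial cells was at 221 and 246 CPM in Dnmt1 KO, against 376 and 417 CPM in controls, with a log2 fold change of -0.77 (SE 0.201, unadjusted p 0.00843, edgeR adjusted p 1). The ranges were apart for 32.1% of all genes tested there. The 5 markers of mural cells, in which *Cdh11* was high, summed to 69.7 and 23.5 CPM in these Dnmt1 KO and to 34.4 and 6.13 CPM in these control nuclei. The part of RNA from mural or other cells in this *Cdh11* level was not tested. Dnmt1 KO replicate 1 held 43 endothelial nuclei. *Cdh18* was lower in both Dnmt1 KO libraries than in both controls in layer 6 neurons and in Cajal-Retzius cells. The ranges were apart in the same way, in either direction, for 37.9% of all genes tested in layer 6 neurons and for 35.7% in Cajal-Retzius cells. In layer 6 neurons *Cdh18* had -0.46 on the log2 scale (SE 0.178, edgeR adjusted p 0.85), -0.18 without control replicate 1, -0.70 within batch 1, -0.24 with a filter on mapped reads (unadjusted p 0.6) and -0.78 under stricter gates. In Cajal-Retzius cells it had -0.60 (SE 0.222, edgeR adjusted p 0.899), -0.34 without Dnmt1 KO replicate 1 and -0.93 without Dnmt1 KO replicate 2. In layer 5 neurons *Cdh8* was at 504 and 622 CPM in Dnmt1 KO, compared with 725 and 923 CPM in controls (-0.55, SE 0.197, unadjusted p 0.0368, edgeR adjusted p 0.946). It was -0.35 within batch 1 (without control replicate 2) and -0.30 under stricter gates, and the ranges were apart for 34.5% of all genes tested in this class. Higher in both Dnmt1 KO libraries were *Cdh9* in layer 5 neurons and *Cdh7* in migrating newborn neurons. *Cdh9* held 18 and 31.1 CPM in Dnmt1 KO, compared with 16.6 and 10.7 CPM in controls (0.87, SE 0.345, unadjusted p 0.0498, edgeR adjusted p 0.946), and was at 0.41 without Dnmt1 KO replicate 2, 0.58 within batch 1, 0.52 in thinned nuclei and 0.43 under stricter gates. *Cdh7* held 10.5 and 10.1 CPM in Dnmt1 KO, against 6.46 and 7.9 CPM in controls (0.56, SE 0.229, unadjusted p 0.0482, edgeR adjusted p 0.834), where the ranges were apart for 37.1% of all genes tested.

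Whether the genotype difference itself differed between MGE interneurons and excitatory neurons was tested as an interaction, in which 0% of 15649 genes were called with edgeR. *Cdh12* had an interaction of 1.39 (SE 0.137, unadjusted p 3.12e-05, edgeR adjusted p 0.488) and *Cdh18* of 1.19 (SE 0.196, unadjusted p 0.000674, adjusted p 1). DESeq2 called *Cdh12* (1.40, adjusted p 0.000826), the 1 gene it called. The excitatory nuclei of Dnmt1 KO replicate 1 held 239 CPM of *Cdh12* against 654 to 848 CPM in the other libraries, and they included 139 upper-layer and 497 layer 6 nuclei. Within upper-layer neurons Dnmt1 KO replicate 1 was also the lowest library for *Cdh12* (788 CPM, highest library 2066 CPM). The part of the layer make-up and of this low level in the interaction was not tested. With layer 6 neurons alone in place of all layers, which was tried after the data had been seen, *Cdh12* was at 0.41 (edgeR adjusted p 1) and *Cdh18* at 1.41 (adjusted p 1). With doublets left out *Cdh12* was at 2.22 (edgeR adjusted p 0.959), with a filter on mapped reads at 2.28 (adjusted p 1) and under stricter gates at 2.06 (adjusted p 0.925). Leaving out 1 library at a time gave 1.31 to 1.49 for *Cdh12* and 0.87 to 1.38 for *Cdh18*, with no call.

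Dnmt1 KO replicate 1 was the lowest library in 57 of the 120 combinations of member and class, in *Cdh6* and *Cdh8* in 9 of 12 classes each and in *Cdh4* in 7. Dnmt1 KO replicate 2 was the highest library in 43 combinations. Of the controls, replicate 1 was lowest in 20 and highest in 32 combinations and replicate 2 lowest in 34 and highest in 30. These counts cover the members alone. The same counts were not made over all genes, so whether other genes ranked the libraries alike was not tested.

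Other cadherin genes of the *Cdh* series and the catenins were read from lists. *Cdh2* (N-cadherin), the main classical cadherin of neural tissue, was at 1752 CPM over all retained nuclei and differed 2.6-fold between the highest and the lowest class, less than any of the 10 members. *Cdh1* (E-cadherin) was at 0.465 CPM. *Cdh5* (VE-cadherin) was at 243 CPM in endothelial cells. *Cdh20*, another type II cadherin, was at 272 CPM in radial glia. Of the catenins, *Ctnna2* (alpha-N-catenin) was at 5732 CPM, *Ctnnd2* (delta-catenin) at 3362 CPM and *Ctnnb1* (beta-catenin) at 133 CPM over all retained nuclei. Of 5 other cadherins tested between upper-layer and layer 6 neurons, 1 was higher and 3 lower in upper-layer neurons, and of 11 catenins and junction linkers, 4 were higher and 3 lower, beside the 16.7% higher and 19.3% lower of all genes in this pair. *Cdh2* was lower in upper-layer than in layer 6 neurons (-0.82, edgeR adjusted p 0.000241) and lower in MGE interneurons than in excitatory neurons (-0.80, adjusted p 6.61e-05). *Ctnnd2* (-1.86, edgeR adjusted p 1.08e-05) and *Ctnna2* (-2.17, adjusted p 3.32e-06) were lower in IPC than in upper-layer neurons, and *Ctnnb1* (1.06, adjusted p 7.91e-05) was higher. No gene of either list passed the edgeR test of the genotypes in any of the 15 populations.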

How the data were processed

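Nuclei were isolated from frozen medial cortex and profiled with split-pool barcoding (Parse Evercode WT), with 2 libraries per genotype. The count matrices were deposited by the authors as raw transcript counts per barcode and gene, made with Trailmaker (Parse Biosciences, version not given in the sources used here) on GRCm39. Whether introns and strand were used in counting was not given in the sources used here. The submitters' processing notes name R 4.4.1 and Seurat 5.0.1.9001.

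The members and gene lists were chosen with earlier results of these data known. Of 1127729 barcodes, 29656 with 1500 to 60000 transcripts were kept (a limit of 10% mitochondrial transcripts removed 0). The libraries held 96455278 to 201141704 transcripts over all barcodes, with 1.64 to 2.54 reads per transcript, and 75338095 to 172783347 transcripts in the retained nuclei. The 18 classes were gated on marker scores of at least 0.5, with a lead of 0.25 over the next class and 2 detected markers. Scanpy's doublet caller marked 3.26 to 8.52% of nuclei, which were kept. Counts were summed per library and population and tested with edgeR 4.0.16 (quasi-likelihood, TMM, filterByExpr) and, as an alternative, DESeq2 1.42.0 in R 4.3.3. The SE printed with edgeR values was worked back from the log2 fold change and its F statistic and was not fitted directly. Marker genes of the gates were left out of the tested tables. The test of class pairs had the library as a term, and that of the genotypes had none. These scripts were tested on simulated data. Thinning, sums and plots used Python 3.11.15. Intervals and floors cover counting error only.

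The genes named were all 10 members, *Cdh2*, *Cdh1*, *Cdh5*, *Ctnna2*, *Ctnnd2* and *Ctnnb1*, and for each member the genes with the highest correlation over the 12 classes, among those at 20 CPM or more in a class. *Cdh20* and the upper-layer, *Sst* and marker sums were chosen after their values were seen. Alternatives were DESeq2, another size factor, library totals, no filter on low counts, doublets left out, a filter on mapped reads, stricter gates, thinned nuclei, a replicate block and leaving out each library. Replicate numbers were shared between the genotypes, but deviations of same-numbered libraries had a correlation of -0.052, so they were not treated as pairs.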

Additional observations from a re-analysis of the deposited data

Results flagged for a closer look

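In 9 of the 120 combinations of member and class, 1 library stood apart from the other 3 by more than Dixon's 95% critical value for 4 samples. Chance alone flags about 1 in 20 groups. Control replicate 2, the library of batch 2, was the library apart in 4 of them. *Cdh6* in mural cells was at 204 CPM there, against 120 and 128 CPM in Dnmt1 KO and 124 CPM in control replicate 1. *Cdh9* in endothelial cells was at 16.1 CPM, against 0, 0.871 and 0 CPM. *Cdh10* in Cajal-Retzius cells was low with 51.3 CPM, against 102, 109 and 99.8 CPM. *Cdh13* in migrating newborn neurons was low with 240 CPM, against 390, 408 and 411 CPM.

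Dnmt1 KO replicate 2 was apart in 3 combinations. *Cdh9* was at 22.5 CPM in its hippocampal lineage, against 18.9, 18.3 and 18.5 CPM in Dnmt1 KO replicate 1 and control replicates 1 and 2, and at 1.68 CPM in its IPC, against 0.264, 0 and 0.238 CPM. The IPC of all libraries together held only 7 transcripts of *Cdh9*. *Cdh18* was at 19.4 CPM in its radial glia, against 11.9, 12.3 and 13 CPM. Dnmt1 KO replicate 1 was apart in 2 combinations. *Cdh8* was high in its upper-layer neurons with 1138 CPM, and *Cdh12* was low in its IPC with 44.9 CPM, against 75.5, 79.7 and 81.5 CPM. No cause was tested.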

How the results depend on the processing

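Of the 39 class-pair calls, 29 passed under each of 10 alternatives and 0 changed sign. Of all 580 such values (58 differences), 498 kept their direction and side of the threshold, 27 lost the call, 39 gained it and 16 changed sign. Those that changed sign had not passed in the reported fit: *Cdh10* between MGE and CGE interneurons (DESeq2 -0.03, doublets left out -0.02, library totals -0.02, leaving out a library -0.28 to 0.32), *Cdh12* in the same pair (filter on mapped reads -0.10, stricter gates -0.03, leaving out a library -0.16 to 0.61), *Cdh10* (stricter gates 0.12) and *Cdh11* (leaving out a library -0.13 to 0.50) between radial glia and IPC, *Cdh8* between MGE and excitatory neurons (stricter gates 0.58, which passed with an adjusted p of 0.0258, leaving out a library -0.24 to 0.02), and *Cdh4* (0.07), *Cdh6* (0.09) and *Cdh8* (0.04) between IPC and upper-layer neurons with library totals. With library totals the share of calls that were higher moved from 46.4 to 63.9% in upper-layer against layer 6 neurons, from 48.5 to 77% in IPC against upper-layer neurons and from 45 to 60.5% in MGE against excitatory neurons. Without the filter on low counts 10 members passed between IPC and upper-layer neurons (25.7% of all genes) and 8 between MGE and CGE interneurons (7.73%). Leaving out a library gave 4 (control replicate 1, 9.37% of all genes) to 9 (control replicate 2, 11.9%) calls in layer 5 against layer 6 neurons.

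For the genotypes, 0 members passed in the reported fit. Without the filter on low counts 15 passed (2 in *Sst*+/*Gad2*+ nuclei, with 0.235% of all genes called there, 3 in excitatory neurons of all layers, with 1.36%, 2 in CGE interneurons, with 0.232%, 1 in the hippocampal lineage, with 0.612%, 1 in IPC, with 0.889%, 4 in layer 5, with 0.594%, 1 in layer 6, with 1.02%, and 1 in upper-layer neurons, with 0.39%) and 3 in the interaction (0.339%), where DESeq2 called 1. The unfiltered fits gave far smaller p-values to genes in general. In excitatory neurons of all layers the smallest edgeR adjusted p of any gene was 4.92e-223, against 0.212 with the filter. The calls made without the filter thus rest on leaving it out. Leaving out a library gave 0 (control replicate 1) to 9 (Dnmt1 KO replicate 2) calls in all. The 9 were *Cdh6* and *Cdh12* in excitatory neurons (1% of all genes called), *Cdh12* in the hippocampal lineage (0.197%), *Cdh6* and *Cdh11* in IPC (1.79%), *Cdh6* in layer 5 neurons (0.172%), *Cdh8* in radial glia (0.578%) and *Cdh8* and *Cdh12* in upper-layer neurons (1.53%). All were lower in Dnmt1 KO replicate 1 than in controls except *Cdh8* in upper-layer neurons, which was higher. By population these ranged from 0 to 1 in *Sst*+/*Gad2*+ nuclei, the hippocampal lineage, layer 5 neurons and radial glia, from 0 to 2 in excitatory neurons, IPC and upper-layer neurons and from 0 to 3 in CGE interneurons. *Cdh12* ranged from -0.14 to 1.28 in MGE interneurons and from -0.93 to 3.74 in *Sst*+/*Gad2*+ nuclei. In the latter *Cdh18*, near the floor in Dnmt1 KO replicate 1, ranged from -1.35 to 2.14. The cause was not tested. With a replicate block 0 members passed in any population (0.0239% of all genes in the hippocampal lineage and 0% in each other population), and the log2 fold change in MGE interneurons was 0.61 for *Cdh12* and 0.96 for *Cdh18*.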

Other observations

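Classes found in few libraries were left out of the comparisons. In the 58 subplate nuclei of Dnmt1 KO replicate 2, *Cdh13* stood at 1462 CPM and *Cdh4* at 518 CPM. The 254 meningeal fibroblasts of the same library held 441 CPM of *Cdh18*. Its 39 oligodendrocyte precursors held 667 CPM of *Cdh4* and 157 CPM of *Cdh6*. These values come from 1 library each.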
